A study of Homo sapiens with 6 samples.

Results

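The mRNAs described here encode the SR splicing factors SRSF1, SRSF2, SRSF3, SRSF4, SRSF5, SRSF6, SRSF7, SRSF9, SRSF10 and SRSF11. They were taken as every position listed under one of these 10 symbols in the cross-link tables of the 2 cell lines, out of 21165 genes listed in DoHH-2 and 12427 listed in GM01953. All 10 had cross-links in both cell lines, with 5748 cDNA counts at 3437 positions in DoHH-2 and 326 counts at 179 positions in GM01953.

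eIF4B, an initiation factor that binds RNA and stimulates the eIF4A helicase, was cross-linked to RNA with UV light in DoHH-2, a diffuse large B-cell lymphoma (DLBCL) cell line, and in GM01953, a non-cancerous B-cell line. iCLIP reports the nucleotide at which reverse transcription stopped beside the cross-linked protein, and a cDNA count is the number of such stops at a position. By the labels, DoHH-2 was measured in 4 replicates and GM01953 in 2, but the authors deposited a single pooled table for each. No spread between replicates can be computed, no test was made, and every interval below is a 95% interval for counting error only. Each cell type is represented by a single line, with no treatment or genetic change given in the labels, and counts were not set against mRNA levels, so binding and mRNA abundance cannot be told apart.

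SR proteins bind exonic enhancers in pre-mRNA through RNA recognition motifs and recruit splicing components through a domain rich in arginine and serine, the RS domain. Several shuttle to the cytoplasm, where they take part in mRNA export and translation. Their own mRNAs are known for poison exons, which are conserved alternative exons that carry a stop codon and send the transcript to nonsense-mediated decay, and which SR proteins use to limit their own expression.

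DoHH-2 held 2033156 cDNA counts in all and GM01953 held 167197, so most members rest on fewer than 50 counts in GM01953. Levels are given as CPM, the counts scaled to a library total of 1000000. Of the 6 B-cell markers examined, all 6 had counts in both lines, while the 3 T-cell and the 3 myeloid markers had 0. Among 3 epithelial markers EPCAM had 2 counts in DoHH-2 and the keratins had 0.

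The SR mRNAs together took a larger share of the library in DoHH-2 than in GM01953, and SRSF1 differed most. Their sum was 2827 CPM (interval 2755 to 2901) in DoHH-2 and 1950 (1744 to 2173) in GM01953, a ratio of 1.45 (1.30 to 1.63). Without SRSF1 the ratio was 1.30 (1.16 to 1.46). Counting positions in place of cDNAs gave 1.28, and restricting members and totals to positions with an FDR below 0.05 gave 1.99.

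SRSF1, the founding member of the family and a known oncoprotein, was the single member past 2-fold. It held 898 counts in DoHH-2, or 442 CPM (413 to 472), and 19 counts in GM01953, or 114 CPM (68.4 to 177). Of 4034 protein-coding genes with a mean of at least 50 CPM, 17.4% were at least 2-fold higher in DoHH-2 and 18.4% at least 2-fold higher in GM01953, so with 1 and 0 of 10 the members did not exceed the background. The ratio for SRSF1 was 3.89 (2.47 to 6.49). In DoHH-2, 377 of its counts lay at 3′ UTR positions that were also listed under the non-coding gene RP11-159D12.5, and without shared positions the ratio was 3.90 (2.16 to 7.85).

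SRSF2, which remains largely nuclear, was at 523 CPM (492 to 555) in DoHH-2 and 365 (279 to 469) in GM01953, a ratio of 1.43 (1.11 to 1.89). SRSF3, the smallest member and an adaptor in mRNA export, was at 324 (300 to 350) and 191 (131 to 270), a ratio of 1.69 (1.19 to 2.50). With SRSF1, these were the 3 of 10 members whose interval lay above 1, beside 22.8% of the 4034 genes. The interval lay below 1 in 0 members, beside 23.9%.

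The other 7 members had intervals that include 1. SRSF7, another export adaptor, was at 380 CPM in DoHH-2 and 305 in GM01953 (ratio 1.24, 0.937 to 1.69). SRSF11, which is also known as p54, was at 366 and 275 (1.33, 0.987 to 1.83), and SRSF9 at 240 and 185 (1.29, 0.898 to 1.92).

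SRSF4, SRSF5 and SRSF6 share a pair of RNA recognition motifs and had ratios close together. SRSF4 was at 149 CPM in DoHH-2 and 126 in GM01953 (ratio 1.19, 0.762 to 1.95), SRSF5 at 143 and 126 (1.14, 0.732 to 1.87), and SRSF6 at 120 and 95.7 (1.25, 0.757 to 2.23). SRSF10, a splicing repressor when dephosphorylated, was at 141 and 167, the only ratio below 1 (0.843, 0.571 to 1.29).

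**Figure D1:**
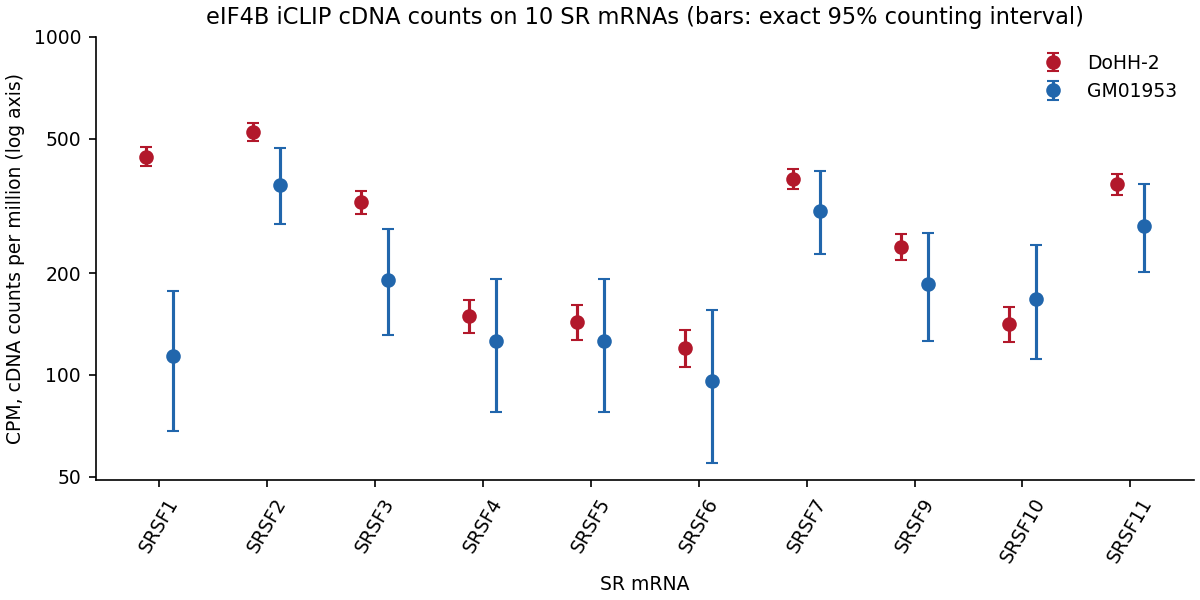
CPM of each SR mRNA (log axis) in DoHH-2 (red) and GM01953 (blue), with exact 95% counting intervals and 1 pooled table per cell line. The points of SRSF1 lie at 442 and 114 with intervals far apart, while the intervals of SRSF4, SRSF5, SRSF6 and SRSF10 overlap between the lines.

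Per length of the spliced mRNA, the order of the members was nearly the same in both lines at its upper end. In DoHH-2, SRSF2 led with 491 counts per kb of exon (460 to 524), followed by SRSF9 with 394 (359 to 432) and SRSF7 with 269 (249 to 291). None of these intervals overlapped its neighbour. SRSF1 at 165, SRSF5 at 153, SRSF3 at 143 and SRSF11 at 137 followed, and each of these overlapped the next. SRSF4 at 90.4, SRSF6 at 50.8 and SRSF10 at 29.9 were lowest and apart from one another. SRSF10 has the longest mRNA of the group, 7656 nt, most of it 3′ UTR.

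In GM01953 SRSF2, SRSF9 and SRSF7 again led, with 29.1 (21.9 to 37.9), 24.3 (16.2 to 35.1) and 17.8 (12.8 to 24.1) counts per kb of exon. SRSF5 was at 12.03, SRSF11 at 8.34, SRSF4 at 8.26 and SRSF3 at 5.68. SRSF6 at 3.68, SRSF1 at 3.56 and SRSF10 at 3.27 were lowest. Every interval overlapped that of the next member in this order, so only members several places apart were resolved. SRSF1 moved from the fourth place in DoHH-2 to the ninth.

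The median ratio over the members was 1.27, beside 1.02 over all protein-coding genes compared. The 18 hnRNP genes, a separate family of RNA-binding regulators, had a median of 1.48 with 4 at least 2-fold higher in DoHH-2 and 0 lower. The core spliceosome list had a median of 1.42 with 5 of 19 higher and 1 lower. Other SR and SR-related genes and their kinases had a median of 1.19 with 3 of 14 higher and 1 lower. Their highest counts belonged to SRRM2, a large SR-related scaffold protein, at 991 CPM in DoHH-2 and 1394 in GM01953, and to SON, at 509 and 472. They were followed by TRA2B, a relative of the SR proteins, at 399 CPM in DoHH-2, and by U2AF2, which binds the polypyrimidine tract, at 353 in GM01953.

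By the criterion of more than 20 counts at positions with an FDR below 0.05, all 10 members were bound in DoHH-2, where 32.9% of protein-coding genes with a count were bound. In GM01953 the members SRSF2, SRSF7 and SRSF11 were bound, with 28, 33 and 25 counts at such positions, 3 of 10 beside 8.35% of genes. The remaining 7 members had between 4 and 16 counts at such positions in GM01953. Since a fixed number of counts is easier to reach in the deeper library, these numbers do not compare the cell lines. Such a number is also easier to reach for genes with many counts. By count in DoHH-2 the members ranked from percentile 88.6 (SRSF6) to 98.9 (SRSF2) of protein-coding genes. All 18 hnRNP genes and all 20 core spliceosome genes, 2 lists described above, were bound in DoHH-2 as well.

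Summed over the members, cross-links on the spliced mRNAs were densest at the 5′ end. Regions were the 5′ UTR, 50 nt to each side of the start codon, the CDS, 50 nt to each side of the stop codon, and the 3′ UTR, on the MANE Select transcript of each gene. In DoHH-2 the 5′ UTR held 15.8% (14.8 to 16.9) of the exonic counts in 2.57% of the exonic length, a density 6.14 times that of all exons. For all protein-coding genes without histones this value was 2.17, for hnRNP genes 3.89 and for core spliceosome genes 7.23. The start codon region was at 3.90 in the members and 3.90 in protein-coding genes without histones. It was at 5.72 in core spliceosome genes and 2.91 in hnRNP genes. The 3′ UTR held 43.1% (41.8 to 44.5) of counts but, being long, was below the exon mean at 0.625. Of the 780 counts in 5′ UTRs, SRSF2, SRSF3 and SRSF7 held 275, 151 and 145. In SRSF4 and SRSF9 the 5′ UTR, at 30.6 and 225 counts per kb, was below the gene's exon density of 90.4 and 394.

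Summed over the members, GM01953 gave similar shares within its wider error. The 5′ UTR held 19.00% (14.8 to 24.01), the start codon 13.3% (9.78 to 17.7), the CDS 28.0% (23.02 to 33.5), the stop codon 2.15% (0.989 to 4.61) and the 3′ UTR 37.6% (32.2 to 43.5). In DoHH-2 the start codon, CDS and stop codon held 11.3%, 25.1% and 4.60%. For each of the 5 regions the DoHH-2 and GM01953 intervals overlapped. In GM01953 the 5′ UTR density was 7.38 times that of all exons in the members. It was 3.54 in protein-coding genes without histones, 6.86 in hnRNP genes and 6.17 in core spliceosome genes.

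The members divided by where their density was highest. In DoHH-2 the 5′ UTR was densest in SRSF2, SRSF3, SRSF5, SRSF6 and SRSF7, 5 of 10 beside 29.8% of protein-coding genes with more than 20 exonic counts. Densities there were 2636 counts per kb in SRSF7, 2273 in SRSF2 and 2097 in SRSF3, against 711 in SRSF5 and 591 in SRSF6. In SRSF6 the start codon region was nearly as dense, at 574 counts per kb, and held 58 counts against 52 in the 5′ UTR. The start codon region was densest in SRSF1, at 1723 counts per kb, in SRSF9, at 614, and in SRSF10, at 307 (3 of 10, beside 38.9%). SRSF11 was highest at the stop codon, at 267 counts per kb from 27 counts (13.5% of genes), and SRSF4 in the 3′ UTR, at 213 (11.6% of genes). No member was highest in the CDS, beside 6.17% of genes.

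SRSF4 therefore stood apart from SRSF5 and SRSF6, its closest relatives in domain layout. Its 5′ UTR and start codon region held 3 counts each in DoHH-2 and 0 each in GM01953, while its 3′ UTR held 132 of 208 exonic counts and 15 of 19. SRSF5 had 59 of 229 and 14 of 18 exonic counts in its 5′ UTR. SRSF6 had 52 of 221 and 9 of 16.

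In GM01953 the densest region was the 5′ UTR in SRSF1, SRSF3, SRSF5, SRSF6 and SRSF11 (28.3% of genes with at least 10 exonic counts). It was the start codon in SRSF2, SRSF7 and SRSF10 (33.6%), the CDS in SRSF9 (15.9%) and the 3′ UTR in SRSF4 (10.1%), with no member highest at the stop codon (12.1%). SRSF3, SRSF4, SRSF5, SRSF6 and SRSF10 kept their region in both lines. In the others the densest region differed between the lines. The start codon region of SRSF2 held 17 of 55 exonic counts in GM01953, 9 of them at 1 base. That was 30.9% (20.3 to 44.03), against 7.55% (6.02 to 9.43) in DoHH-2, with intervals that do not overlap. Intervals of the 5′ UTR share were also apart in several members, in both directions. Only region shares whose intervals were apart are listed here. How often such intervals are apart over all protein-coding genes was not computed, so the list is a description. The intervals also treat counts at a single base as independent. In DoHH-2 and GM01953 it was 4.65% and 31.6% in SRSF1, 25.8% and 77.8% in SRSF5, and 23.5% and 56.25% in SRSF6. It was 29.7% and 12.7% in SRSF2 and 22.9% and 4.76% in SRSF7. In SRSF9 the 3′ UTR share (33.9% and 7.14%) and the stop codon share (0.441% and 7.14%) were likewise apart. The CDS of SRSF9 held 19 of 28 exonic counts in GM01953. The densest regions of SRSF1, SRSF7 and SRSF11 in GM01953 rested on 6, 5 and 5 counts.

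**Figure D2:**
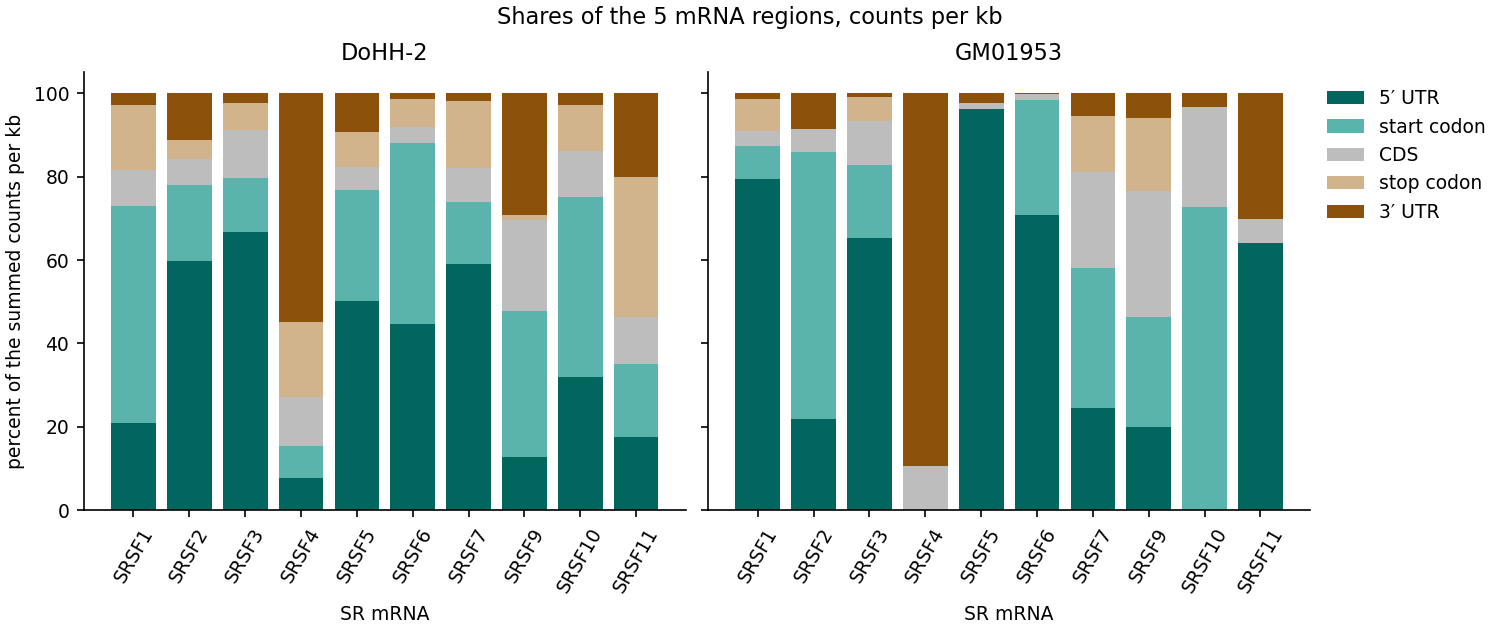
Share of each mRNA region in the summed counts per kb of the 5 regions, for each SR mRNA in DoHH-2 (left) and GM01953 (right). SRSF4 is filled mainly by its 3′ UTR in both panels, while SRSF3, SRSF5 and SRSF6 are filled mainly by the 5′ UTR and start codon.

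The densest stretch of 50 nt lay wholly in the 5′ UTR in SRSF2, SRSF3, SRSF5, SRSF6, SRSF7 and SRSF10 in DoHH-2. In SRSF2 it began 170 nt before the start codon, near the 5′ end of its 171-nt 5′ UTR, and held 189 of 927 exonic counts in 2.65% of the mRNA. In SRSF1 it ran from 44 nt before the start codon to 5 nt after its first base, with 128 of 881 counts. In SRSF9 the stretch lay in the 3′ UTR with 97 of 454 counts. SRSF4 and SRSF11 also had it in the 3′ UTR, with 38 of 208 and 67 of 544 counts.

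**Figure D3:**
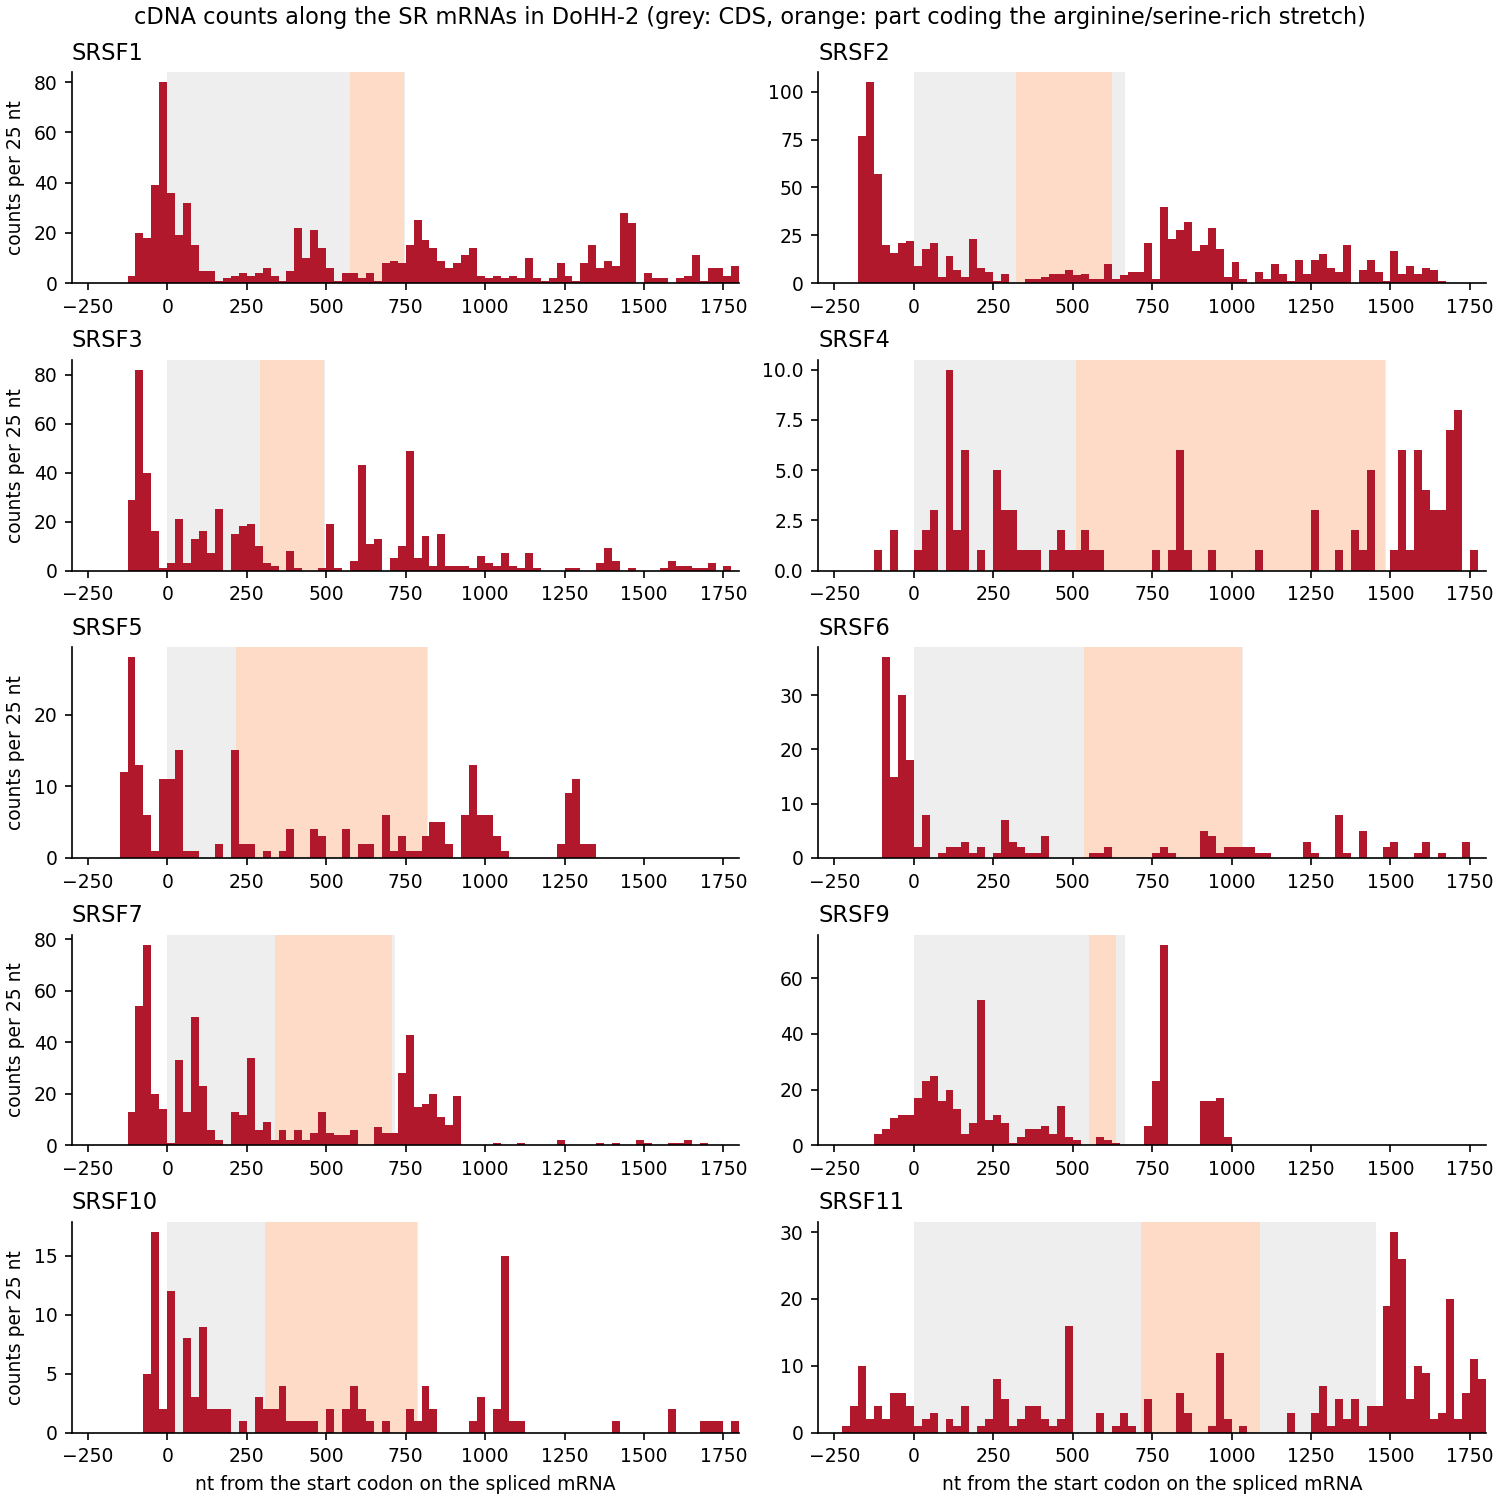
cDNA counts per 25 nt along the spliced SR mRNAs in DoHH-2, from the 5′ end to at most 1800 nt after the start codon, with the CDS in grey and the part that codes for the arginine/serine-rich stretch in orange. The tallest bars of SRSF2, SRSF3, SRSF6 and SRSF7 stand before the start codon, and the orange part is low in SRSF3 and SRSF9.

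The sequence around the position with the highest count describes a single site of each mRNA. In DoHH-2 that position held between 2.23% (SRSF1) and 6.15% (SRSF6) of the gene's counts in SRSF1, SRSF2, SRSF3 and SRSF6. In SRSF2 in GM01953 it held 14.8%. The windows below are 21 nt long, read 5′ to 3′ on the strand of the mRNA in GRCh38, with the cross-linked base in capitals and U written as T. They are shown for the 4 members with their highest DoHH-2 position in the 5′ UTR and for SRSF2 in GM01953, whose highest position was the base next to the start codon.
SRSF1, DoHH-2, chr17:58007141-58007161, minus strand: gagtccgcgcTtttcgtcacc
SRSF2, DoHH-2, chr17:76737287-76737307, minus strand: tgcggagcccGtccgtgctgt
SRSF3, DoHH-2, chr6:36594385-36594405, plus strand: gagtgagagaGttggttggtg
SRSF6, DoHH-2, chr20:43457986-43458006, plus strand: cggtccgccgTtcgacaacca
SRSF2, GM01953, chr17:76737151-76737171, minus strand: cactcagagcTatgagctacg

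The SRSF1 position, 14 nt before the start codon, held 20 counts in DoHH-2 and 72 within 10 nt. The SRSF2 position, 137 nt before it, held 27 and 85. In SRSF3 the position 89 nt before the start codon held 25 and 78, and in SRSF6 the position 38 nt before it held 15 and 26. In GM01953 the highest SRSF2 position held 9 counts, and the same base held 6 in DoHH-2.

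In the other 6 members the highest DoHH-2 position was in the CDS or in the 3′ UTR, and several 3′ UTR windows are rich in U. These examples, with SRSF4 also in GM01953, are shown for contrast with the 5′ UTR windows.
SRSF7, DoHH-2, CDS, chr2:38750116-38750136, minus strand: ggctttcagtTattatggtcc
SRSF9, DoHH-2, 3′ UTR, chr12:120461892-120461912, minus strand: atttttttttTttaaagaaga
SRSF4, DoHH-2, 3′ UTR, chr1:29147961-29147981, minus strand: ggtttcatatTtttggactta
SRSF4, GM01953, 3′ UTR, chr1:29148047-29148067, minus strand: agttcaaccaTttttgctctt
SRSF11, DoHH-2, 3′ UTR, chr1:70250873-70250893, plus strand: gctgtatttgTtcatctcaaa

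The SRSF7 position held 23 counts, SRSF9 20, SRSF4 14 in DoHH-2 and 5 in GM01953, and SRSF11 16. In SRSF5 the highest position was also in the CDS, with 14 counts, and in SRSF10 it was in the 3′ UTR, with 13. The SRSF10 window, not among those shown, has more G than U. In 0 of 10 members did the highest positions of the cell lines lie within 5 nt of each other. The share over all protein-coding genes was not computed, so this count is given as a description. The GM01953 maxima were only 3 to 11 counts, and in SRSF1 a pair of positions tied at 3. Those of SRSF5 and SRSF6 were in the 5′ UTR, 57 and 56 nt before the start codon, and those of SRSF3 and SRSF11 were in introns.

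Most GM01953 positions lay near a DoHH-2 position. Of the 10 highest GM01953 positions, 4 had a DoHH-2 count at the same base and 6 had one within 5 nt. Of the 179 GM01953 positions in the members, 47.5% (40.3 to 54.8) also had a count in DoHH-2 and 81.6% (75.2 to 86.6) had one within 5 nt. Over all protein-coding genes these shares were 32.9% and 55.8%, over hnRNP genes 60.7% and 87.9%, and over core spliceosome genes 46.0% and 80.8%. Genes with more DoHH-2 counts offer more positions for a match, so the shares are given as a description.

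Uridine was over-represented at the cross-linked base itself. Across the 1206 positions with an FDR below 0.05 on the members' mRNAs in DoHH-2, 47.3% (44.5 to 50.2) were U, beside 30.6% of all bases of these mRNAs. In GM01953 it was 47.9% (34.5 to 61.7) of 48 positions. UV cross-linking favours U in general, and its part in this value was not tested. The GA-rich words GAAGAA and AGAAGA, searched on the mRNA strand and overlapping each other, occurred in 1.49% (0.946 to 2.35) of the 21-nt windows around these positions in DoHH-2, in 0 of 48 in GM01953 and in 1.82% of windows around every base.

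Within the CDS, the codons of the arginine/serine-rich part were cross-linked less than the rest. The stretch was taken from the translated MANE Select CDS as the first to the last residue of all windows of 20 residues with at least 12 R or S, and ranged from 28 residues in SRSF9 to 324 in SRSF4. Summed over the members in DoHH-2 it held 307 counts at 75.9 per kb, and the rest of the CDS held 1226 at 254 per kb, a ratio of 0.299 (0.263 to 0.339). In GM01953 the ratio was 0.527 (0.331 to 0.821), from 30 and 68 counts.

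The ratio was below 1 in 10 of 10 members in DoHH-2, with the whole interval below 1 in 8. It was lowest in SRSF9, at 0.137 (0.0441 to 0.324) from 5 counts in the stretch, and in SRSF3, at 0.158 (0.0881 to 0.265) from 16. SRSF7, whose 123-residue stretch held 66 counts, was at 0.305 (0.228 to 0.405). The intervals of SRSF6, at 0.612 (0.351 to 1.04), and SRSF11, at 0.864 (0.554 to 1.31), included 1. In SRSF5 the stretch runs from residue 73 to residue 272 and takes in its second RNA recognition motif, so its ratio of 0.302 (0.191 to 0.474) is not that of the RS domain alone. In GM01953, 7 of 10 ratios were below 1, and 0 of 10 intervals excluded 1.

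**Figure D4:**
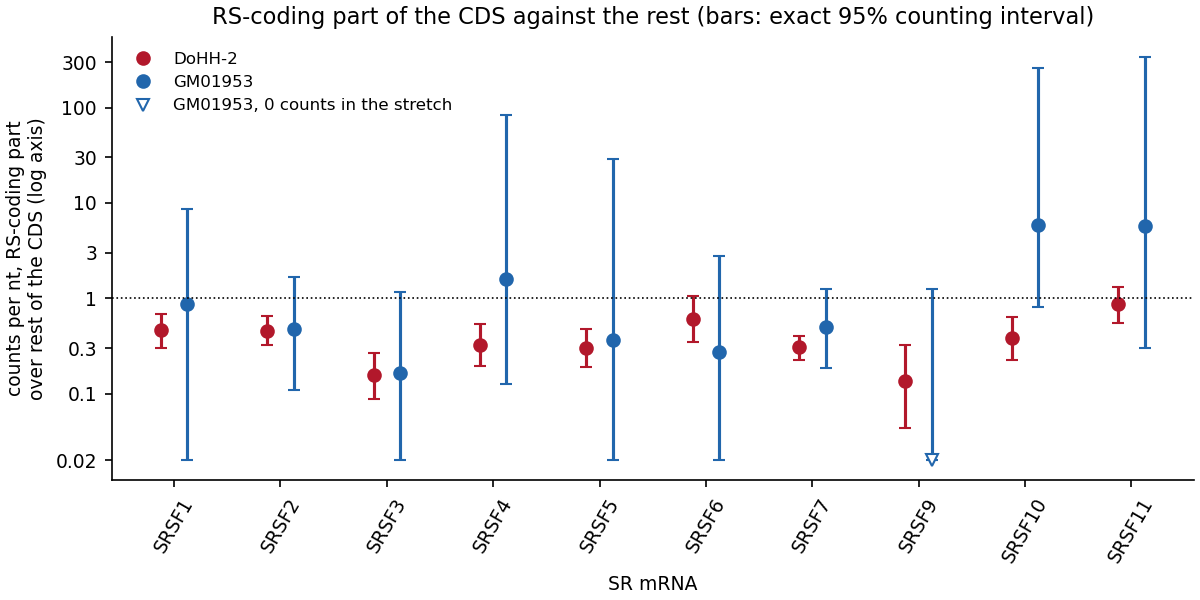
Counts per nt in the codons of the arginine/serine-rich stretch divided by counts per nt in the rest of the CDS for each SR mRNA (log axis), with exact 95% counting intervals that are drawn no lower than 0.02. All 10 DoHH-2 points lie below the dotted line at 1, and the GM01953 intervals reach across it.

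Other properties also differed between the stretch and the rest of the CDS. The stretch had 17.6% U and the rest 22.4%. In DoHH-2 the ratio was 0.285 (0.225 to 0.357) at U bases and 0.328 (0.281 to 0.382) at other bases, and in GM01953 it was 0.668 (0.297 to 1.41) and 0.497 (0.274 to 0.872). Sequence that occurs once in the genome made up 86.5% of the stretch and 88.0% of the rest over all members, but 44.8% and 73.8% in SRSF3 and 51.9% and 60.9% in SRSF6. The part of U content and of repeated sequence in the RS ratio was not tested. The stretch also lies toward the end of the CDS in most members. The later 50% of the CDS had fewer counts than the earlier 50% in 10 of 10 members in DoHH-2, beside 78.2% of protein-coding genes without histones. It did so in 18 of 18 core spliceosome genes and in 13 of 18 hnRNP genes with more than 20 CDS counts. In GM01953 it did in both of the 2 members with more than 20 CDS counts, beside 75.4%. In DoHH-2 the later part over the earlier was 0.452 (0.405 to 0.504) in the members beside 0.650 over protein-coding genes without histones and 0.540 over core spliceosome genes, and the part of position in the RS ratio was not tested.

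Introns held 13.7% (12.8 to 14.6) of the members' counts in DoHH-2 and 14.4% (11.02 to 18.6) in GM01953. At positions with an FDR below 0.05 the shares were 2.41% and 10.53%, and by positions in place of counts 20.1% and 15.1%. Over all protein-coding genes without histones the shares were 21.5% and 21.4%, over hnRNP genes 12.5% and 12.6%, and over core spliceosome genes 8.72% and 10.8%. The members spanned a wide range in DoHH-2. SRSF4 was at 30.7% (25.7 to 36.1) and SRSF11 at 26.6% (23.5 to 29.9), both with long introns. SRSF1 was at 1.67% (1.02 to 2.74), from 15 of 896 counts, in introns of 985 nt in all. Counts on the last base of an intron, where a cDNA that ends at an exon would fall, were 4 of 782 in DoHH-2 and 5 of 47 in GM01953.

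Poison exons were taken as internal exons of transcripts annotated for nonsense-mediated decay in GENCODE release 44 that lie wholly inside a MANE Select intron. By this definition 8 members had them, 15 exons with 2908 nt in all, while SRSF1 and SRSF5 had 0. In DoHH-2, 7 of these 8 members had at least 1 count in a poison exon, beside 20.5% of protein-coding genes with such an exon and an intron count. In GM01953 2 of the 7 with an intron count did, beside 3.44%. The members have more counts than most genes, which raises the chance of at least 1.

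In DoHH-2 the poison exons held 52 counts, 17.9 per kb, against 7.52 per kb in the rest of the introns of the same genes, a ratio of 2.38 (1.76 to 3.16). Over all protein-coding genes the same ratio was 6.82 (6.53 to 7.12), over hnRNP genes 1.29 (0.663 to 2.26) and over core spliceosome genes 17.4 (11.02 to 26.5). None of the 52 counts lay at a position with an FDR below 0.05. In GM01953 the poison exons held 5 counts, of which 4 were at a single SRSF3 position, and the ratio was 3.86 (1.19 to 9.81).

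The counts came mainly from 2 exons. The poison exon of SRSF7 in chr2:38748898-38749346, 449 nt on the minus strand, held 18 counts at 17 positions in DoHH-2 and 0 in GM01953. The 456-nt poison exon of SRSF3 in chr6:36599821-36600276, on the plus strand, held 17 counts at 15 positions in DoHH-2. Its 4 counts in GM01953, at 1 position with an FDR below 0.05, were the highest of SRSF3 in that line, and that base had 0 counts within 5 nt in DoHH-2. The window is shown because it is the only such position in a poison exon of the members.
SRSF3, GM01953, poison exon, chr6:36600091-36600111, plus strand: atgtcttcacAacaactacag

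The other poison exons held between 0 and 5 counts each in DoHH-2. SRSF6 had 5 in its 268-nt exon, SRSF11 6 over 3 exons, SRSF2 3, SRSF10 2 and SRSF4 1 over 4 exons, and SRSF9 had 0. With 0 counts, an exon of 90 nt in SRSF9 allows up to 3.

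In DoHH-2 whole introns that hold a poison exon were denser than the other introns of these genes, not the poison exons alone. This comparison was chosen after the intron counts had been seen. The 11 introns with a poison exon held 557 counts, 14.2 per kb, and the other 32 introns of the same 8 genes held 154, 3.01 per kb, a ratio of 4.71 (3.93 to 5.67). They took 78.3% of the intron counts in 43.4% of the intron length. Over all protein-coding genes with a poison exon the ratio was 1.30 (1.28 to 1.32).

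The direction was the same in 8 of 8 members, beside 49.1% of protein-coding genes with both kinds of intron and more than 20 intron counts. SRSF2 was at 123 counts per kb against 8.98, from 122 and 3 counts, with its poison exon in the intron after the stop codon. SRSF11 was at 33.1 against 3.08, with 123 of its 197 intron counts in its second intron. SRSF7 was at 47.4 against 10.8, and SRSF9 at 18.0 against 1.11 although its poison exon had 0 counts. SRSF3, at 9.88 against 4.05, and SRSF6, at 15.1 against 5.45, had the smallest ratios.

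In DoHH-2 the poison exons were at 17.9 counts per kb and the rest of the same introns at 13.9, a ratio of 1.29 (0.951 to 1.72). In GM01953 that ratio was 2.98 (0.879 to 8.13). Over all protein-coding genes it was 5.84 (5.58 to 6.10) in DoHH-2 and 5.54 (4.62 to 6.60) in GM01953. In GM01953 the introns with a poison exon held 26 counts and the others 18, a ratio of 1.88 (0.992 to 3.64). Of the 7 members with an intron count, 6 had the same direction, each from only 2 to 6 counts in the introns with a poison exon. The share was 33.7% of genes with both kinds of intron and an intron count, and 40.5% of those with more than 20 intron counts. At positions with an FDR below 0.05 the GM01953 ratio was 0.828, on the other side of 1, and the DoHH-2 ratio was 24.3. Without SRSF4, whose first intron is 21128 nt long, the ratios were 7.74 in DoHH-2 and 3.51 in GM01953.

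**Figure D5:**
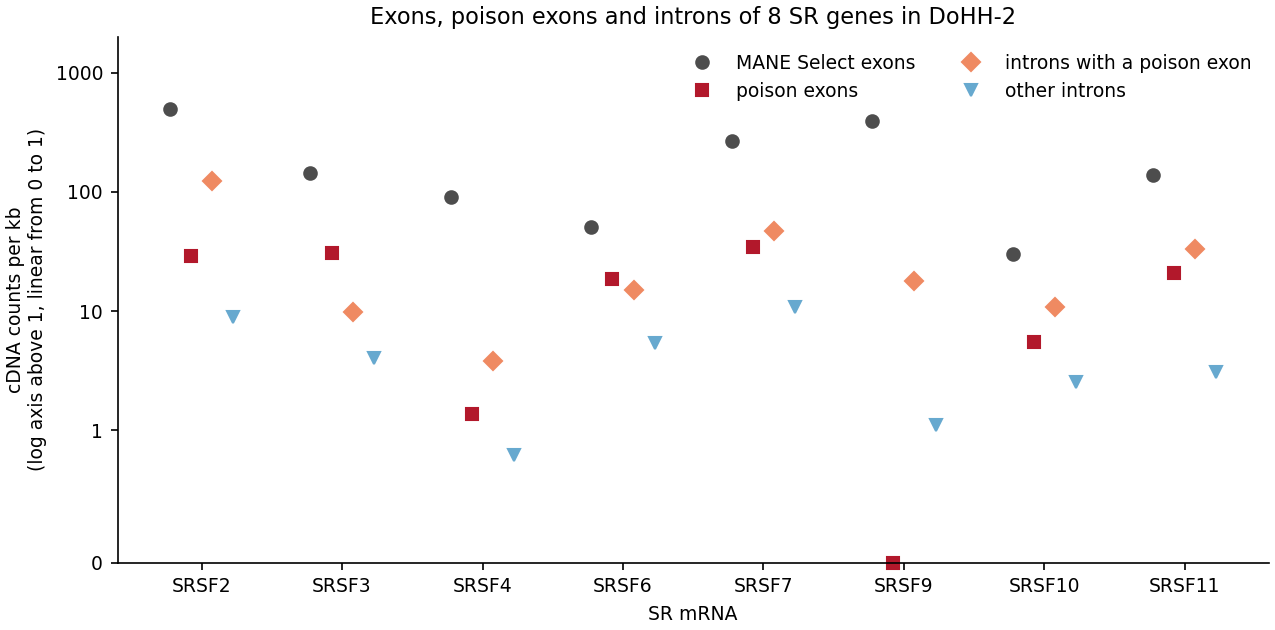
cDNA counts per kb in DoHH-2 in MANE Select exons, poison exons, introns that hold a poison exon and the other introns of the 8 SR genes with a poison exon (log axis above 1, linear from 0 to 1). In all 8 genes the introns with a poison exon lie above the other introns and below the exons, and the poison exon of SRSF9 is at 0.

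SRSF5, with 0 poison exons by this definition, also had an uneven intron pattern. Intron 5 held 41 of its 56 intron counts in DoHH-2, at 33.7 per kb. SRSF1 had 10 of its 15 intron counts in intron 3. Intron bases that a transcript annotated as a retained intron covers with an exon held 55.7% of the intron counts in 22.4% of the length over the 9 members that have them, a ratio of densities of 4.37 (3.78 to 5.06) in DoHH-2 and 3.33 (1.79 to 6.16) in GM01953. Over all protein-coding genes this ratio was 7.35 and 7.24. Whether such counts come from unspliced RNA, from retained introns or from other alternative exons was not tested.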

How the data were processed

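iCLIP of eIF4B was carried out in DoHH-2 (4 replicates in the labels) and GM01953 (2). The cDNA counts per position were made by the authors, who removed PCR duplicates with BBMap, demultiplexed with Je, used HISAT2 to map reads to GRCh38, and ran iCount on the replicates pooled by cell line. Tool versions are not given in the sources used here. The FDR per position, a q-value from counts permuted within the gene, was deposited by the authors. Counts were not normalized by them.

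Deposited positions were read as counted from 0 and moved to 1-based coordinates, because the base composition of both strands then agreed to within 1.50 percentage points, against 14.8 otherwise. Positions were placed on MANE Select transcripts of GENCODE release 44 with pandas 2.3.3 and pysam 0.24.0 in Python 3.11.15. CDS were translated with Biopython 1.88. CPM use all counts of the cell line. Shares within a gene have Wilson intervals, levels have exact binomial intervals, and ratios have exact conditional binomial intervals (scipy 1.17.1). Named genes are the 10 members and the 3 highest other SR-related genes of each line. The members and gene lists were chosen with earlier results of these data known. The placing in mRNA regions and introns and the ratio intervals were tested on simulated data. There the counts were planted independently at random positions, so heaping of counts at single bases was not covered. Poison exons and the RS stretch were not part of it. Columns of other samples left out were 0.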

Additional observations from a re-analysis of the deposited data

How the results depend on the processing

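No paired analysis was possible because each cell line was deposited as 1 pooled table, and for the same reason no replicate could be left out. Of 120 values under alternatives, 71 stayed within the counting interval or 1.5 times the count reported, 48 moved out of it and 1 reversed. Alternatives that leave out SRSF1 or SRSF4, use all positions for the base composition, change the RS stretch by codon windows or a union of windows, or concern introns with a poison exon were chosen after seeing the data. The cause of the changes was not tested. The depth of GM01953 limits every value per member there.

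Restricting to positions with an FDR below 0.05 reversed the poison exon ratio in DoHH-2 to 0. It gave 3660 CPM of the restricted total in DoHH-2, a ratio between lines of 1.99, intron shares of 2.41% in DoHH-2 and 10.53% in GM01953, and an RS ratio of 0.107 in DoHH-2. The DoHH-2 shares became 21.8% in the 5′ UTR, 14.2% at the start codon, 21.1% in the CDS and 38.8% in the 3′ UTR, and in GM01953 the 3′ UTR share became 45.1% and that of the stop codon 0%. Introns with a poison exon over other introns became 24.3 in DoHH-2 and 0.828 in GM01953.

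Positions in place of counts gave shares of 2915 and 2281 per 1000000 positions for DoHH-2 and GM01953 and 1.28 between them, with an intron share of 20.1% and an RS ratio of 0.412 in DoHH-2. The DoHH-2 regions became 11.3%, 8.84%, 27.8% and 46.9% for 5′ UTR, start codon, CDS and 3′ UTR. Leaving histone genes out of the total gave 3373 and 2179 CPM. In DoHH-2, leaving out positions shared with another gene gave 2639, unique sequence alone 2736, and the sum without SRSF1 2386.

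Of the members, 0 were bound in GM01953 with more than 50 counts and 8 without an FDR threshold. Codon regions of 25 nt to each side gave 19.1%, 5.23%, 28.6%, 2.03% and 45.02% in DoHH-2, in the order of the mRNA, and 7.89% at the start codon and 0.717% at the stop codon in GM01953. The longest coding transcript gave 18.2%, 12.8%, 28.5%, 3.88% and 36.5% in DoHH-2 and 30.7% in the GM01953 3′ UTR. Exons of any protein-coding transcript gave an intron share of 11.1% in DoHH-2 and a ratio of 3.68 for introns with a poison exon. As a separate alternative, leaving out SRSF4 with MANE Select introns kept gave 7.74. At least 14 of 20 R or S gave an RS ratio of 0.356. Windows of 11 nt gave 0.246% with a GA-rich word in DoHH-2, and all positions 42.6% U at the centre.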
